A study of Mus musculus with 28 samples.

Results

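This account follows the inhibitors of cyclin-dependent kinases and the pocket proteins in the developing mouse nerve. It covers the 3 Cip/Kip inhibitors Cdkn1a (p21), Cdkn1b (p27) and Cdkn1c (p57), the 4 INK4 inhibitors Cdkn2a, Cdkn2b (p15), Cdkn2c (p18) and Cdkn2d (p19INK4d), and the 3 pocket proteins Rb1, Rbl1 (p107) and Rbl2 (p130). These 10 genes were picked by symbol from the 41605 genes of the count table. All 10 were among the 17700 genes with enough counts to be tested. The data were bulk poly-A RNA-seq of peripheral nerves from C57BL/6J mice, with 4 libraries at each of 7 stages and 28 libraries in all. The stages were embryonic days (E) 13 and 17 and postnatal days (P) 1, 5, 14, 24 and 60, with no treatment or mutant allele in any group. The tissue label names the sciatic nerve at every stage, whereas the study's methods state that the E13 libraries came from various nerves outside the dorsal root ganglia. Each embryonic library pooled 2 embryos of 1 sex, each postnatal library came from 1 mouse, and from E17 on the outer sheaths were stripped to enrich the endoneurium. The study states 2 male and 2 female samples per stage, and sex was not modelled here.

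A cell commits to division when cyclin-bound kinases phosphorylate the pocket proteins, which in their unphosphorylated form hold E2F transcription factors and keep cell cycle genes silent. INK4 proteins bind Cdk4 and Cdk6 and block their pairing with D-type cyclins, whereas Cip/Kip proteins bind cyclin-kinase complexes more broadly, including those of Cdk2. Among the pocket proteins, p107 is typical of cycling cells and p130 of resting ones, where p130 joins E2F4 and the MuvB proteins in a repressor complex. Schwann cells, the glia of the nerve, divide in the late embryo and stop dividing as they take hold of single axons and myelinate them.

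The start regions of 8 of the 10 genes were in the RefSeq promoter table (GRCm38.p6), with 11 windows, because Cdkn1a, Cdkn2a and Cdkn2c each had a pair of starts. Each window below is the 250 bases before a start, 5′ to 3′ on the gene's own strand, and capitals mark an E2F word, meaning TTTCCCGC, TTTCGCGC, TTTGCCGC or TTTGGCGC on either strand. The windows of Rbl1 (chr2:157204535-157204784, minus strand) and Rbl2 (chr8:91069807-91070056, plus strand) are shown because the transcript levels of these sister genes moved in opposite directions after E17.
Rbl1: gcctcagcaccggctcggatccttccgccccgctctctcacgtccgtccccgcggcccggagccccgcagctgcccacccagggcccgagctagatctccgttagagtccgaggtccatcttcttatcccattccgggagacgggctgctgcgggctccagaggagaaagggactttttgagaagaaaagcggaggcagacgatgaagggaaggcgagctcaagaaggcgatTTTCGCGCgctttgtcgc
Rbl2: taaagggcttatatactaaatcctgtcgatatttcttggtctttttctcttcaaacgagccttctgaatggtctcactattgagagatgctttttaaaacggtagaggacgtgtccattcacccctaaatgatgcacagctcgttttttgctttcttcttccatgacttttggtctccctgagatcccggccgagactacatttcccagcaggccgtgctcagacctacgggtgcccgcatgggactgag
Both starts of Cdkn2a are shown because the count of this gene adds up 2 products. The transcript from the upstream start (chr4:89294620-89294869, minus strand) encodes p19ARF, which stabilizes p53, and that from the downstream start (chr4:89282193-89282442, minus strand) encodes the kinase inhibitor p16INK4a.
Cdkn2a upstream start: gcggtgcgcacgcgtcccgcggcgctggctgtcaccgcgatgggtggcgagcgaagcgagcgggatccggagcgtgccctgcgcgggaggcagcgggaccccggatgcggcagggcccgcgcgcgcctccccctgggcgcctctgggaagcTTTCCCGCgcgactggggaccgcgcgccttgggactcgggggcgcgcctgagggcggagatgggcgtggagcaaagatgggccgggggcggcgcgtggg
Cdkn2a downstream start: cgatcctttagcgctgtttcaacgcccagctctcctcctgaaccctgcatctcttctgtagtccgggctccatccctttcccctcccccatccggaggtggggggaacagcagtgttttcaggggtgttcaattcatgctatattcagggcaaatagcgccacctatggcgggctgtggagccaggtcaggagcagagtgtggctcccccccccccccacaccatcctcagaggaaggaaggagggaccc
An E2F word was present in 2 of the 11 windows, that of Rbl1, 18 bases before the start, and the upstream one of Cdkn2a, 99 bases before the start. Among all 32851 windows of this length, 1.86% held such a word. The CHR words TTTGAA and TTCGAA were in 2 of the 11 windows (Cdkn2b and Rbl2), against 17.1% of all windows. The GC box word GGGCGG was in 6 of the 11, against 32.7% of all, while the FoxO word GTAAACA (3.17% of all) and the TATA word TATAAA (12.4% of all) were in 0 of the 11. These words were searched on both strands, and a match describes letters only.

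Total counts ran from 13899895 to 37662780 per library. Levels are given as CPM (counts scaled to a common total with TMM, mean ± SD of 4 libraries), and levels of different genes are compared only as RPKM (CPM per kilobase of summed exons). Ratios of 2 genes within a library, given as CPM, are read only for their change between stages. The Schwann cell marker Sox10 was at 34.1 to 169.6 CPM in the E13 libraries and at 209 to 531 CPM from E17 on, and Erbb3 was at 145 to 315 CPM and 319 to 939 CPM. The E13 libraries also held 585 to 1012 CPM of the 3 neuronal markers (Snap25, Rbfox3, Stmn2), against 4.71 to 40.3 CPM in all later libraries, and 587 to 5642 CPM of the 4 erythroid markers. The stage and the dissection cannot be told apart in any comparison with E13, and in bulk tissue fewer cells of a type and less RNA per cell cannot be told apart. The summed level of Mki67 and Top2a, both made in dividing cells, was 168 to 379 CPM at E13, peaked at E17 with 1727 to 1806 CPM, and was 2.55 to 4.14 CPM at P60.

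A member was called when its adjusted p was under 0.05 over all 17700 genes (edgeR quasi-likelihood test, Benjamini-Hochberg) and the change was at least 2-fold, and "rose" and "fell" are used only for called changes. Over all stages together, 9 of the 10 members were called, against 70.0% of all genes tested, and the exception was Cdkn2d, whose stage means lay 0.98 apart on the log2 scale. From E13 to E17, 4 members rose (Cdkn2a, Cdkn2b, Cdkn2c and Rbl1) and 0 fell, whereas 14.2% of all genes rose and 21.2% fell. With the adjusted p alone, 7 members were higher and 1 lower at E17, against 28.1% and 34.1% of all genes. Between E17 and P1, around birth, another 4 rose (Cdkn1a, Cdkn1b, Cdkn1c and Rb1) and 0 fell, against 6.31% and 5.41% of all genes. By the adjusted p alone 5 were higher and 3 lower (Cdkn2c, Cdkn2d and Rbl1), against 15.1% and 14.4%.

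Later steps changed fewer members. From P1 to P5, 0 members rose and 1 (Cdkn1c) fell, against 4.05% and 1.79% of all genes, and with the adjusted p alone 1 was higher and 3 were lower, against 10.3% and 7.33%. From P5 to P14, 0 rose and 2 (Cdkn1c and Rbl1) fell, against 7.11% and 4.91% of all genes, while the adjusted p alone gave 2 higher and 3 lower, against 15.4% and 14.2%. From P14 to P24, 0 rose and 0 fell, where 1.51% and 1.14% of all genes did so, and Cdkn1c alone passed the adjusted p (lower, 1 of 10, with 2.72% of all genes higher and 2.72% lower). From P24 to P60, again 0 rose and 0 fell, against 2.55% and 3.41%, with 2 higher (Cdkn1b, Rbl2) and 1 lower (Rbl1) by the adjusted p alone, against 6.84% and 9.23%. In each of these last 2 steps, 4 of 10 members had an unadjusted p under 0.05, and DESeq2 and limma-voom also called 0. Counts at an unadjusted p are given, here and below, only beside counts of 0. The share of all genes at that cutoff was not counted, so they say nothing particular to the members or lists.

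Over the whole span from the dividing nerve at E17 to the adult at P60, 4 members rose (Cdkn1a, Cdkn1b, Cdkn2a and Rbl2) and 3 fell (Cdkn1c, Cdkn2c and Rbl1), against 22.2% and 17.5% of all genes. With the adjusted p alone, 5 were higher and 4 lower, against 32.8% and 31.5%, and Rb1 was the member left out. Each of the 3 families therefore held members that rose, and each held one that fell.

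**Figure D1:**
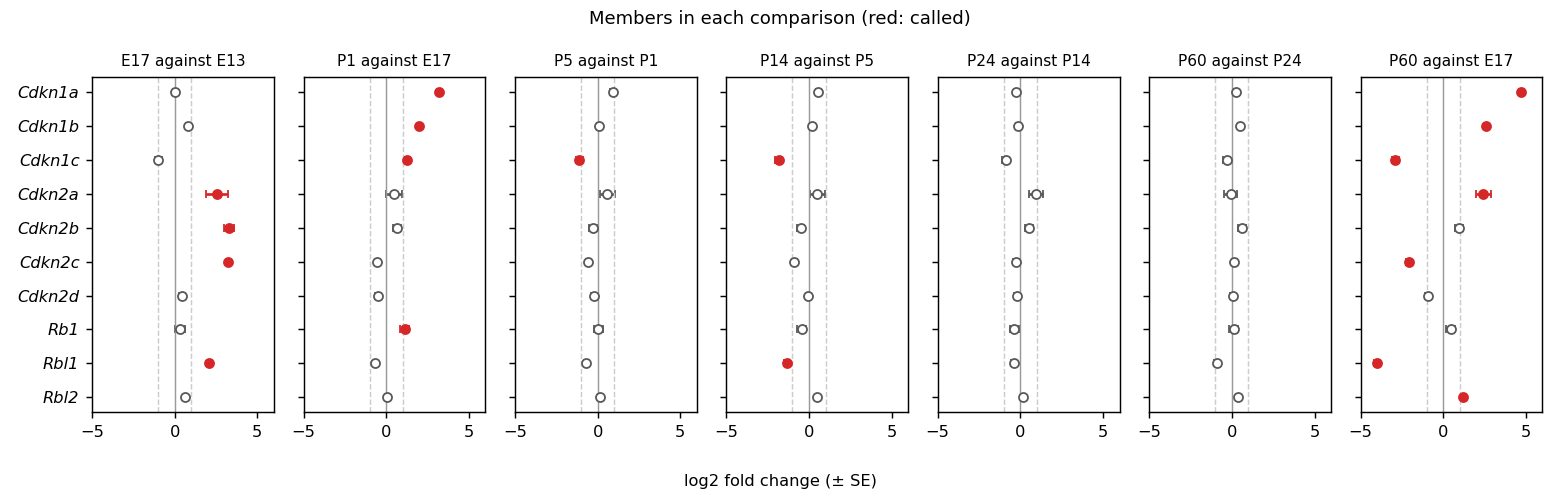
Log2 fold changes of the 10 members (points, bars: SE of the fit) in 6 comparisons of adjacent stages and in P60 against E17, with dashed lines at 2-fold and filled red points for called changes. The calls lie mostly in the first 2 panels and in the last, where Cdkn1a (4.71) and Rbl1 (-4.03) mark the ends of the range.

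Among the Cip/Kip inhibitors, Cdkn1a (ENSMUSG00000023067, chr17:29090976-29100727, plus strand), best known as the arrest gene downstream of p53, had the steepest rise of the 10 genes at birth. Its 4 libraries read 22.2, 18.7, 20.3 and 19.2 CPM at E17 and 178, 189, 183 and 191 CPM at P1. The groups were thus far apart, with a log2 fold change of 3.20 ± 0.15 (SE, adjusted p = 8.71e-16). At E13 the level was 19.6 ± 5.98 CPM, and its libraries overlapped those of E17 (log2 0.04 ± 0.14, adjusted p = 0.807).
The level was 349 ± 10.5 CPM at P5, 517 ± 44.1 at P14 and 438 ± 37.9 at P24. The steps to P5 (log2 0.91, adjusted p = 1.31e-05) and to P14 (0.57, adjusted p = 0.00166) passed the adjusted p below 2-fold, with no overlap of libraries. At P60 the libraries held 476, 546, 541 and 545 CPM, which overlapped the range at P14, and the rise from E17 to P60 was 4.71 ± 0.16 (adjusted p = 1.17e-19). The order of the stage means was P60, P14, P24, P5, P1, E17 and E13, in which P60 and P14, P14 and P24, and E17 and E13 overlapped.

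Cdkn1b (ENSMUSG00000003031, chr6:134920401-134925513, plus strand), whose product accumulates in cells leaving the cycle, made most of its gain in the same step. Its libraries held 64.0, 61.8, 55.6 and 65.0 CPM at E17 and 244, 266, 224 and 222 CPM at P1. All P1 values were above all E17 values, with a log2 fold change of 1.96 ± 0.12 (adjusted p = 7.69e-13). A plateau followed, at 254 ± 31.6 CPM (P5), 286 ± 22.3 (P14) and 262 ± 29.8 (P24), with overlapping libraries and adjusted p values between 0.29 and 0.697 for the 3 steps.
At P60 its libraries read 340, 364, 387 and 370 CPM. They were above all P24 libraries, by 0.48 ± 0.12 on the log2 scale (adjusted p = 0.00484), which is under 2-fold. From E17 to P60 the gene rose by 2.57 ± 0.12 (adjusted p = 4.16e-16). The E13 level of 34.9 ± 7.04 CPM was below that of E17 by 0.82 log2 units (adjusted p = 1.3e-06), also under 2-fold.

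Cdkn1c (ENSMUSG00000037664, chr7:143458339-143461050, minus strand), an imprinted gene expressed from the maternal copy, was the only one of the 3 to fall over the timeline, and its level did not run one way. The libraries held 219, 273, 290 and 378 CPM at E13 and 158, 144, 145 and 137 CPM at E17. These ranges were separate, and the difference of -0.99 ± 0.19 (adjusted p = 6.36e-05) stopped just short of 2-fold. At P1 the libraries read 292, 359, 380 and 361 CPM, all above E17, and the gene rose by 1.25 ± 0.19 (adjusted p = 1.1e-05).
It then fell at P5, to 152, 176, 169 and 151 CPM (-1.10 ± 0.19, adjusted p = 1.18e-04), and again at P14, to 45.9, 46.6, 38.2 and 51.0 CPM (-1.83 ± 0.19, adjusted p = 3.94e-08). Neither step had overlapping libraries. P24 followed at 34.5, 13.8, 24.4 and 25.2 CPM, lower than P14 by 0.90 log2 units (adjusted p = 0.00418), and without P24 replicate 1, the highest of the 4, this difference was -1.10 and passed the 2-fold minimum. The P60 libraries, at 21.6, 13.3, 19.2 and 23.9 CPM, overlapped those of P24, and the fall from E17 to P60 was -2.91 ± 0.21 (adjusted p = 1.29e-12). The peak was at P1 (348 ± 38.6 CPM), whose libraries overlapped only those of E13.

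**Figure D2:**
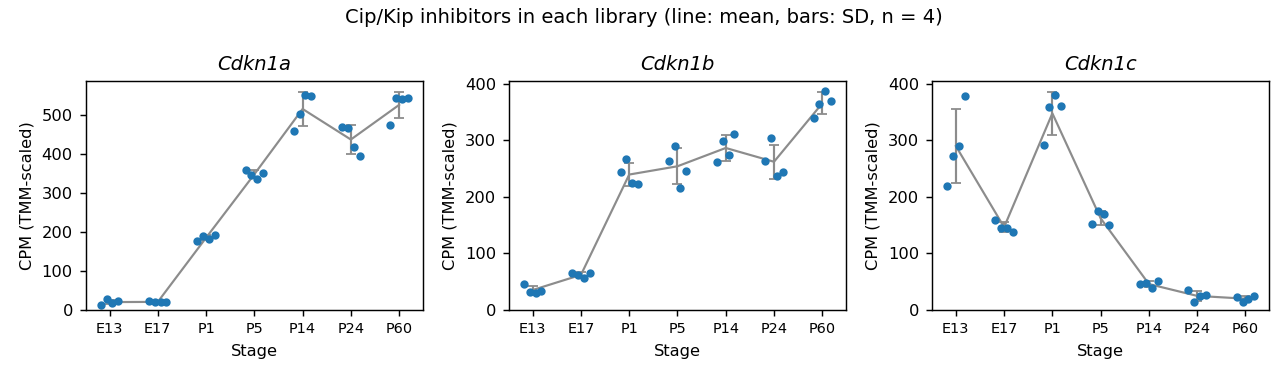
CPM of Cdkn1a, Cdkn1b and Cdkn1c in each of 28 libraries (points) by stage, with the stage mean (line) and SD (bars, n = 4). Cdkn1a goes from 20.1 CPM at E17 to 527 CPM at P60, Cdkn1b from 61.6 to 365 CPM, and Cdkn1c peaks at P1 before it goes down to 19.5 CPM.

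Per length, the make-up of the family turned over. The summed RPKM of the 3 genes was 90.9 ± 4.86 at E17, 275 ± 19.4 at P1 and 238 ± 12.9 at P60. Cdkn1c made up 91.2% ± 2.18 (SD, n = 4) of this sum at E13 and 78.9% ± 1.06 at E17. After birth its share was 61.9% ± 2.99 (P1), 34.1% ± 2.27 (P5) and, in the adult, 4.03% ± 0.99 (P60). Cdkn1a, at 6.22% ± 0.24 in the E17 libraries, led the family from P5 on (42.1% ± 1.93) and reached 62.3% ± 1.22 at P60. Cdkn1b went from 14.9% ± 1.17 at E17 to 33.7% ± 0.66 at P60. Using the longest transcript instead of all exons raised the RPKM of Cdkn1a by a factor of 1.71 and that of Cdkn1c by 1.07, and turned the order of Cdkn1a and Cdkn1b at P1 and at E13.

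The balance of Cdkn1c to Cdkn1b within a library does not depend on the scaling between libraries. On the log2 scale of CPM (pseudocount 0.1) it was 1.25 ± 0.13 in the E17 libraries, 0.54 ± 0.23 (P1), -0.64 ± 0.20 (P5), -2.66 ± 0.14 (P14), -3.48 ± 0.67 (P24) and -4.25 ± 0.39 (P60). The change from E17 to P60 was -5.50 (two-sided exact permutation test, 4 against 4, p = 0.0286, the smallest p this design allows). All P60 libraries were below those of E17 for Cdkn1c and above them for Cdkn1b, so this p followed from the single-gene results. It adds no support of its own.

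Among the INK4 genes, Cdkn2c (ENSMUSG00000028551, chr4:109660876-109667189, minus strand), which responds to E2F, was highest at E17. Its libraries read 3.44, 6.38, 5.99 and 6.89 CPM at E13 and 53.4, 53.9, 56.95 and 50.7 CPM at E17. It rose by 3.25 ± 0.16 (adjusted p = 2.24e-15), between dissections that differed as stated above. After that every step to P14 was downward, to 37.3 ± 2.53 CPM at P1 (-0.53, adjusted p = 0.00706), 25.4 ± 1.24 at P5 (-0.55, adjusted p = 0.00846) and 13.6 ± 1.82 at P14 (-0.90, adjusted p = 3.7e-05), each below 2-fold and with no overlap of libraries.
Its P60 libraries held 13.9, 9.72, 15.05 and 11.6 CPM. These overlapped P14 and P24 (11.3 ± 0.83 CPM), and the fall from E17 to P60 was -2.10 ± 0.16 (adjusted p = 3.55e-12).

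Cdkn2d (ENSMUSG00000096472, chr9:21288410-21291407, minus strand), another INK4 inhibitor, changed least. Its E17 libraries held 38.9, 38.4, 42.7 and 40.5 CPM and its P60 libraries 18.3, 21.04, 22.0 and 22.6 CPM. The groups were separate, but the difference of -0.93 ± 0.17 (adjusted p = 2.69e-05) was under 2-fold. Scaled by library size only it was -1.25 and passed that minimum. The E13 libraries spread from 17.9 to 41.4 CPM, and each stage overlapped the next one in the order of their means.

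Cdkn2b (ENSMUSG00000073802, chr4:89306299-89311039, minus strand), a TGF-beta responsive inhibitor, was counted with 1 to 13 reads per library at E13, or 0.43, 0.36, 0.25 and 0.053 CPM. At E17 its libraries read 3.08, 2.69, 3.14 and 2.51 CPM, a rise of 3.29 ± 0.30 (adjusted p = 3.01e-10). It then stayed between 2.59 ± 0.47 CPM (P14) and 5.64 ± 1.03 CPM (P60), and only the step from E17 to P1 passed the adjusted p among the later adjacent stages (0.65 ± 0.24, adjusted p = 0.0375). At P60 the values were 6.14, 6.24, 4.10 and 6.09 CPM, all above E17, with a difference of 0.98 ± 0.24 (adjusted p = 8.92e-04) that passed 2-fold without P60 replicate 3 (1.10), E17 replicate 1 (1.03) or E17 replicate 3 (1.05).

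Cdkn2a (ENSMUSG00000044303, chr4:89274471-89294653, minus strand) had the fewest reads of the members, 397 in total and 0 to 39 per library. Its count cannot separate p16INK4a from p19ARF. At E13 the libraries held 0, 0, 2 and 2 reads, and at E17 5, 7, 7 and 2. Summed over libraries, 21 reads at E17 and 4 at E13 gave a ratio of 6.77 after scaling (exact 95% interval 2.28 to 27.1, counting error only). The fit called this a rise (log2 2.56 ± 0.68, adjusted p = 0.00198), a size that rests on the 4 reads at E13.
No step between adjacent stages after E17 passed the test, yet the means went from 0.26 ± 0.10 CPM at E17 to 0.80 ± 0.24 (P14), 1.55 ± 0.53 (P24) and 1.45 ± 0.74 (P60). The P60 libraries held 13, 28, 11 and 34 reads (0.95, 2.03, 0.68 and 2.13 CPM), all above the E17 libraries. The rise from E17 to P60 was 2.43 ± 0.48 (adjusted p = 7.56e-05).

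**Figure D3:**
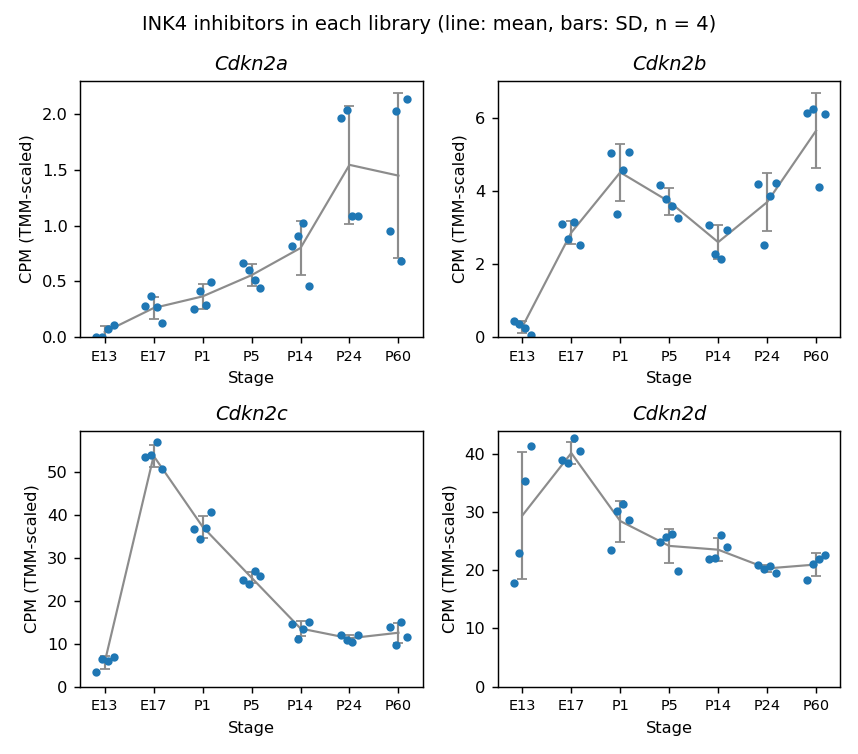
CPM of the 4 INK4 genes in each of 28 libraries (points) by stage, with the stage mean (line) and SD (bars, n = 4), each on its own axis from 0. Cdkn2c peaks at E17 with 53.8 CPM, the stage means of Cdkn2d lie between 20.3 and 40.1 CPM, and Cdkn2a stays below 2.2 CPM in every library.

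Per length the INK4 genes summed to 47.8 ± 2.05 RPKM at E17 and to 23.3 ± 1.19 RPKM at P60. Cdkn2d was the largest part at every stage, with 53.4% ± 1.38 at E17 and 57.1% ± 3.21 at P60. Cdkn2c held 41.9% ± 1.00 at E17 and 20.2% ± 4.33 at P60, while Cdkn2b went from 4.30% ± 0.36 to 17.4% ± 3.29 and Cdkn2a from 0.46% ± 0.18 to 5.25% ± 2.52.

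The pocket proteins Rbl1 and Rbl2 moved apart. Rbl1 (ENSMUSG00000027641, chr2:157145893-157204534, minus strand) encodes p107, itself made under E2F control in cycling cells, and its window above holds an E2F word next to the start. Its libraries read 24.8, 18.98, 16.6 and 11.2 CPM at E13 and 71.0, 83.2, 74.8 and 74.0 CPM at E17, a rise of 2.08 ± 0.16 (adjusted p = 1.01e-11). The libraries of each later stage lay below all those of the stage before it. The means were 47.7 ± 7.34 CPM at P1 (-0.67, adjusted p = 0.00125), 29.8 ± 2.69 at P5 (-0.68, adjusted p = 0.002), 11.6 ± 0.94 at P14 (-1.36, adjusted p = 1.76e-07) and 8.77 ± 0.72 at P24 (-0.40, adjusted p = 0.179).
At P60 the 4 libraries held 4.53, 4.35, 5.41 and 4.21 CPM. They were lower than those of P24 by 0.92 ± 0.17 log2 units (adjusted p = 2.96e-04), and without P60 replicate 3 the difference was -1.01 and passed 2-fold. From E17 to P60 Rbl1 fell by -4.03 ± 0.18 (adjusted p = 5.61e-17), the steepest fall of the 10 genes.

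Rbl2 (ENSMUSG00000031666, chr8:91070057-91123844, plus strand), which encodes p130, changed in small steps the other way. Its libraries held 44.7, 41.5, 45.4 and 41.3 CPM at E17 and 48.1, 44.7, 41.5 and 43.8 CPM at P1, which overlapped. The level was 48.8 ± 3.81 CPM at P5 and 67.3 ± 2.21 at P14, a step of 0.46 ± 0.11 (adjusted p = 0.00244) without overlap, and 76.3 ± 7.05 at P24. At P60 the libraries read 103, 83.8, 106 and 97.3 CPM, all above E17, and the rise over that span was 1.17 ± 0.11 (adjusted p = 8.91e-10). Scaled by library size only, that difference was 0.86 and no longer 2-fold. Exons of Rbl2 share 693 bases with Aktip on the other strand, and whether the counting used the strand is not given in the sources used here.

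Rb1 (ENSMUSG00000022105, chr14:73183673-73325822, minus strand), the retinoblastoma gene, had its high phase around birth. Its libraries read 44.5, 47.4, 44.7 and 45.2 CPM at E17 and 116, 103, 82.1 and 92.3 CPM at P1, with no overlap, and it rose by 1.11 ± 0.28 (adjusted p = 0.00282; 0.996 by library size only, just under 2-fold). Thereafter it was 102 ± 12.4 CPM (P5), 74.7 ± 5.80 (P14), 57.2 ± 8.96 (P24) and 62.4 ± 0.30 (P60). The E13 libraries spread widely, at 73.8, 35.5, 23.2 and 12.7 CPM, and the E13 replicates also differed most in how counts followed the GC content of genes (slopes of -1.24 and 0.97 log2 units per 10 points of GC in replicates 1 and 4, against -0.57 in P1 replicate 1, the next steepest).
Because the fit shares the spread over stages, the E13 libraries also set the error of Rb1 at the other stages. With the E13 libraries left out, the differences from P5 to P14 (-0.44, adjusted p = 6.99e-04), from P14 to P24 (-0.37, adjusted p = 0.0127) and from E17 to P60 (0.46, adjusted p = 2.68e-04) passed the adjusted p, where with all 28 libraries their adjusted p values were 0.233, 0.565 and 0.149. All of these were below 2-fold. With the GC trend of each library removed and E13 kept, the difference from P5 to P14 also passed the adjusted p (-0.44, adjusted p = 0.00173). Exons of Rb1 share 488 bases with Rcbtb2 and 408 with Lpar6, both on the other strand.

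**Figure D4:**
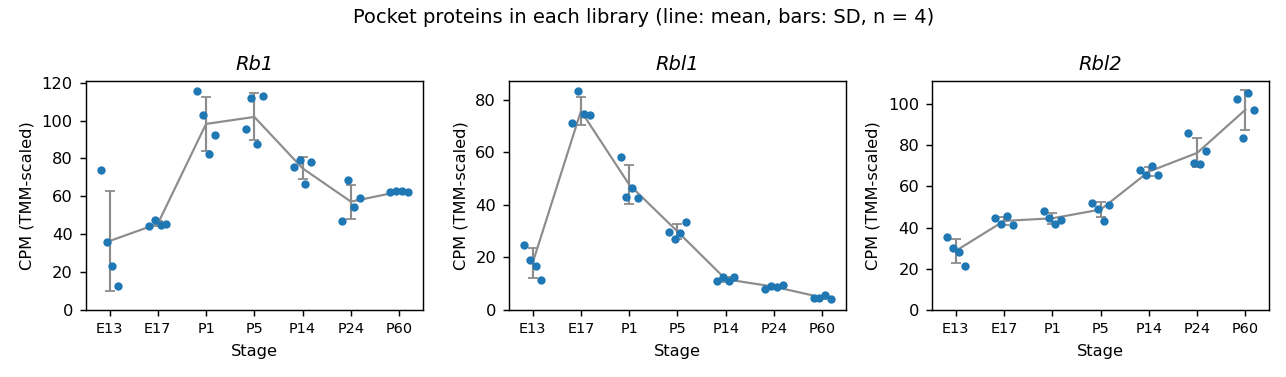
CPM of Rb1, Rbl1 and Rbl2 in each of 28 libraries (points) by stage, with the stage mean (line) and SD (bars, n = 4). Rb1 is highest at P1 and P5, Rbl1 goes down from 75.7 CPM at E17 to 4.63 CPM at P60, and Rbl2 goes up from 43.2 to 97.4 CPM.

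The log2 ratio of Rbl1 to Rbl2 was -0.71 ± 0.17 for the E13 libraries and 0.81 ± 0.15 for those of E17. It was then 0.09 ± 0.16 (P1), -0.71 ± 0.15 (P5), -2.53 ± 0.16 (P14), -3.11 ± 0.22 (P24) and -4.37 ± 0.14 (P60). The ratio ranged from 0.67 to 1.001 among the E17 libraries and from -4.50 to -4.24 among the P60 libraries, which were thus apart. The change of -5.17 from E17 to P60 reached the smallest p of this design (two-sided exact permutation test, p = 0.0286). With the Cdkn1c to Cdkn1b ratio 2 such tests were made, and the adjusted p is the same. All P60 libraries were below those of E17 for Rbl1 and above them for Rbl2. This p therefore followed from the single-gene results and adds no support of its own. Per length, the 3 pocket proteins summed to 12.8 ± 6.09 RPKM at E13 and 25.9 ± 0.95 at E17, and after birth to 30.2 ± 3.69 (P1), 28.4 ± 2.55 (P5), 23.3 ± 0.81 (P14), 21.1 ± 1.13 (P24) and 24.03 ± 1.34 RPKM (P60). Rbl1 held 48.7% ± 1.63 of it at E17 and 3.21% ± 0.27 at P60, and Rbl2 went from 22.1% ± 1.55 to 53.5% ± 2.48. Rb1 held the largest part at P1 (54.0% ± 2.44), P5 (59.6% ± 2.49) and P14 (53.4% ± 2.35), whereas at P24 its share of 45.0% ± 5.24 was within the spread of that of Rbl2 (48.1% ± 5.45).

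**Figure D5:**
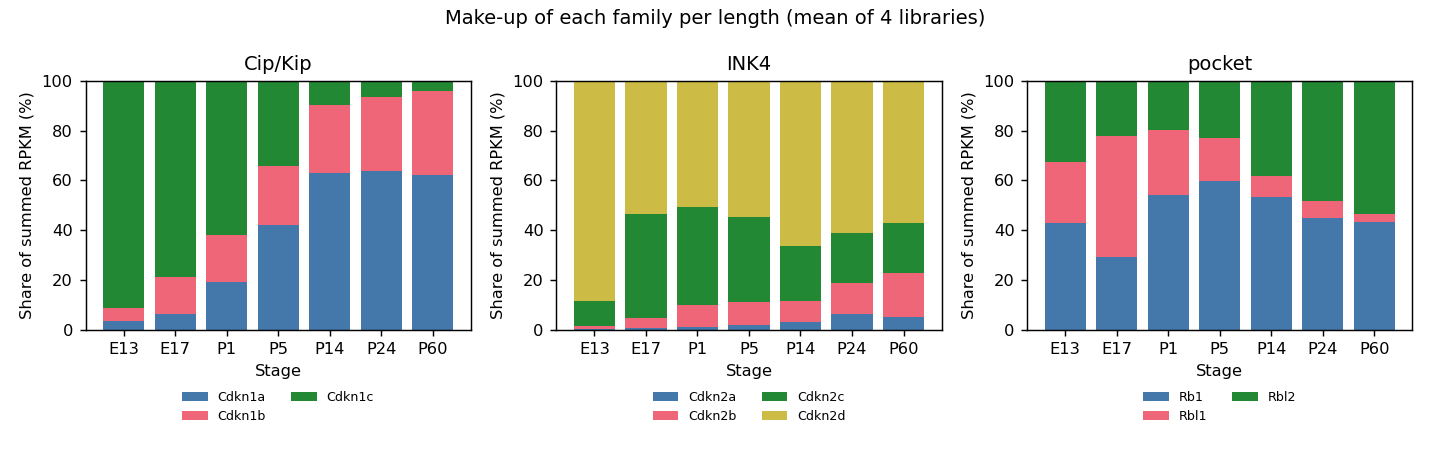
Share of each gene in the summed RPKM of its family (stacked bars, mean of 4 libraries) by stage, for Cip/Kip, INK4 and pocket proteins. Cdkn1c goes from 91.2% of its family at E13 to 4.03% at P60, Cdkn2d is the largest INK4 part throughout, and Rbl1 goes from 48.7% at E17 to 3.21% at P60.

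The genes whose pattern was most like that of each member, by Pearson r of log2 CPM over the 28 libraries, are given as a description, since all libraries share the 7 stages. For Cdkn1a they were Il16 (r = 0.997), Gjb1 (0.994), the gap junction gene of myelinating Schwann cells, and Ncmap (0.993), a myelin protein gene. Rbl1 was most like Cenpe (0.993), a kinetochore motor, Rad54b (0.989), a DNA repair gene, and Slfn9 (0.988). Cdkn1b was most like Arhgap24 (0.987), Hsd17b11 (0.986) and Plpp1 (0.984), and Rbl2 most like Aldh6a1 (0.982), Ccpg1 (0.975) and Cav2 (0.974).
The other members had Coro2b (0.968), Eef1a1 (0.964) and Astn2 (0.964) for Cdkn1c, Lcorl (0.978), Zfr (0.963) and Rmnd5a (0.963) for Rb1, and Pde8a (0.964), Capn5 (0.956) and Ptpn13 (0.953) for Cdkn2c. The INK4 genes of low level had Ccl11 (0.973), Plpp3 (0.970) and Atp8b1 (0.965) for Cdkn2b and Cavin3 (0.943), Enoph1 (0.940) and Avpi1 (0.937) for Cdkn2a, and Cdkn2d had Ldha (0.927), Clic1 (0.918) and Ppp1r18 (0.910). These names depended on the E13 libraries, since without them 1 of 3 was shared for Cdkn1a and Cdkn1b, 2 of 3 for Rb1 and 0 of 3 for the other 7. Over the 24 later libraries Cdkn2c was most like Mcm7 (0.992), Bub1b (0.988) and Ncapd2 (0.986), all used in DNA replication or mitosis. Rbl1 was most like Ckap2l (0.995), Spc25 (0.994) and Ezh2 (0.993), and Rbl2 most like Ezh1 (0.982), Nek7 (0.977) and Ephx1 (0.975). For Cdkn1a they were Ddn (0.997), Fa2h (0.996) and Il16 (0.996), without Gjb1 and Ncmap. With Mki67, r over those 24 libraries was 0.96 for Rbl1, 0.88 for Cdkn1c, 0.85 for Cdkn2c, 0.73 for Cdkn2d, 0.17 for Rb1, -0.42 for Cdkn2b, -0.69 for Cdkn1b, -0.70 for Cdkn1a, -0.80 for Cdkn2a and -0.96 for Rbl2.

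The partners of these proteins are given from E17 to P60, where the median of all genes tested was 0 on the log2 scale and 22.2% rose and 17.5% fell. Of the G1 cyclins and their kinases, among them the kinases that the inhibitors bind, 0 of 8 rose and 7 fell (median -3.36), led by Ccne2 (43.3 to 1.47 CPM, -4.86) and Ccne1 (31.3 to 1.11 CPM, -4.82). The exception was Ccnd3 (74.2 to 46.2 CPM, -0.68, adjusted p = 0.0203). The S to M cyclins and Cdk1 fell in 4 of 4 (median -7.93), led by Ccnb1 (131 to 0.30 CPM, -8.73) and Cdk1 (182 to 0.73 CPM, -7.93).
Of 10 E2F and DP factors, which the pocket proteins bind, 8 fell and 1 rose (median -1.79). The largest falls were in the atypical repressors E2f8 (-6.01) and E2f7 (-5.89), the riser was Tfdp2 (29.1 to 64.9 CPM, 1.15), and E2f4, the usual partner of p130, was at 33.4 CPM at E17 and 20.2 CPM at P60 (-0.72, under 2-fold). In the list of the MuvB core, B-Myb and FoxM1, 3 of 7 fell, namely Foxm1 (-5.89), Mybl2 (-4.22) and Lin9 (-2.71), and Lin52 rose (10.5 to 28.1 CPM, 1.41), with a median of -0.84. All 11 S phase genes under E2F fell (median -3.92), with Rrm2 at -7.07 and Mcm5 at -4.90 as the largest.

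Regulators of the inhibitors, and the targets of p53, did not share 1 direction. Of 13 other genes of the p53 list, 2 rose and 3 fell from E17 to P60 (median 0.15), led by Gadd45a (0.96 to 5.66 CPM, 2.54) and Bbc3 (1.10 to 3.34 CPM, 1.56), with Plk2 (-1.35), Zmat3 (-1.17) and Sesn2 (-1.05) as those that fell. At P1 against E17, 0 of these 13 rose and 0 fell (median -0.04, edgeR), against 6.31% and 5.41% of all genes, with 4 of 13 at an unadjusted p under 0.05. The 3 that passed the adjusted p below 2-fold were Gadd45a (0.89), Sesn2 (-0.67) and Btg2 (-0.66).
Of the 6 genes for SCF-Skp2 and Cks, the ligase that marks p27 for degradation, 3 fell (median -2.05): Cks2 (30.0 to 0.93 CPM, -4.996), Skp2 (58.5 to 2.96 CPM, -4.31) and Cks1b (43.4 to 3.33 CPM, -3.70). Skp2 (-1.27) and Cks2 (-1.17) had already fallen between E17 and P1, the step at which Cdkn1b transcripts rose. Of the 4 FoxO factors, activators of Cdkn1b transcription, 3 rose (median 1.89), Foxo4 (36.2 to 188 CPM, 2.38), Foxo6 (0.38 to 1.74 CPM, 2.20) and Foxo1 (31.4 to 93.3 CPM, 1.57). At P1 against E17, 0 of 4 were called (edgeR, 1 of 4 at an unadjusted p under 0.05), where 6.31% of all genes rose and 5.41% fell.

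Of 8 genes for the Cdc25 phosphatases, Wee1-type kinases and the CDK-activating kinase, 5 fell and 0 rose (median -1.42), led by Cdc25c (29.0 to 0.11 CPM, -7.89) and Cdc25a (40.0 to 6.29 CPM, -2.67). In the imprinted domain around Cdkn1c, 6 of 7 listed genes had enough counts to be tested, the exception being Phlda2. Slc22a18 rose (0.21 to 2.47 CPM, 3.49), and the antisense RNA Kcnq1ot1 fell (33.0 to 11.9 CPM, -1.47), with a median of 0.15 over the list. Between E17 and P1, 0 of these 6 were called (edgeR, 0 of 6 at an unadjusted p under 0.05, median -0.05), where 6.31% of all genes rose and 5.41% fell.
The fall of the cell cycle lists went with that of Mki67 and Top2a, which fell in 2 of 2, and with changes in markers of other cells. Those that rose were 3 of 3 pericyte and smooth muscle markers (118 to 139 CPM summed at E17, 479 to 516 at P60), 2 of 2 perineurial markers (104 to 127 and 288 to 485 CPM), 3 of 3 neuronal markers (10.8 to 20.6 and 31.0 to 40.3 CPM) and 2 of 4 fibroblast markers, with 1 of the 4 lower (5064 to 6140 and 4093 to 5630 CPM). Those that fell were 4 of 4 erythroid markers (311 to 875 and 18.7 to 39.8 CPM), 4 of 4 skeletal muscle markers (6.39 to 22.7 and 0.31 to 1.38 CPM) and 2 of 2 genes listed for cartilage (37.9 to 47.4 and 1.87 to 4.64 CPM). The cartilage sum was mostly Col2a1 (42.4 CPM at E17, against 0.68 CPM for Acan). The study uses Col2a1 as a marker of endoneurial fibroblast-like cells, so its fall need not concern cartilage. Of 3 endothelial and 3 immune markers, 0 were called (edgeR, 1 and 2 of them at an unadjusted p under 0.05). Among Schwann cell markers S100b rose (43.5 to 972 CPM, 4.48), Erbb3 fell (853 to 351 CPM, -1.28) and Sox10 was not called (326 to 449 CPM, 0.46, adjusted p = 0.151). The erythroid and skeletal muscle markers had also fallen in 4 of 4 each between E17 and P1, to 51.9 to 152 CPM and 0.77 to 1.67 CPM, the step at which Cdkn1a, Cdkn1b, Cdkn1c and Rb1 rose. At that step S100b rose (43.5 to 114 CPM, 1.40), and the perineurial marker Slc2a1 (62.6 to 23.0 CPM, -1.44) and the neuronal marker Stmn2 (12.7 to 6.29 CPM, -1.01) fell. The 3 endothelial markers Pecam1 (-0.77), Kdr (-0.83) and Cdh5 (-0.90), together with Mki67 (-0.95) and Top2a (-0.94), passed the adjusted p there below 2-fold. The part of these cell types in the members' changes was not tested.

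The scaling of libraries moved the centre of the data. With library size only, the median of all genes tested shifted by -0.31 from E17 to P60, and 42.0% of called genes were higher, against 56.0% with TMM. The same share went from 40.1% to 28.7% at E17 against E13, from 53.8% to 43.0% at P1 against E17, from 69.4% to 44.7% at P5 against P1 and from 59.1% to 46.2% at P14 against P5. It moved the other way at P24 against P14, from 57.1% to 64.9%, and at P60 against P24, from 42.7% to 52.5%. Of the changes called above, those of Rb1 at P1 and of Rbl2 from E17 to P60 lost the 2-fold minimum under this scaling, and every called change of the members kept its direction. The same scaling added the falls of Cdkn1c from E13 to E17 (-1.23, 5 members called), of Cdkn2c from P5 to P14 (-1.08, 3 called) and of Cdkn2d from E17 to P60 (-1.25, 7 called, as with TMM). Over all stages together it also added Cdkn2d, whose stage means were then 1.41 apart on the log2 scale, so that 10 of 10 members were called.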

How the data were processed

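The authors sequenced stranded poly-A TruSeq libraries of nerve RNA, trimmed the reads, aligned them with STAR 2.6.1c and counted reads per gene with featureCounts on Ensembl gene models. The build is GRCm38.p5 in the submitters' processing notes. The study's methods give a human build name, and strand and multi-mapping settings are not given in the sources used here. The authors deposited raw counts per gene, without normalization. All 28 columns belong to a library of the timeline. Of 41605 identifiers, 41519 (99.79%) matched GENCODE M21 (GRCm38), which gave symbols, coordinates, exon lengths and GC content.

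Genes passing edgeR's filterByExpr by stage (17700) entered 1 quasi-likelihood fit of all 28 libraries (edgeR 4.0.16, R 4.3.3, robust, TMM, stage as the only term), with p-values adjusted by Benjamini-Hochberg over all of them. The 6 adjacent pairs of stages, P60 against E17 and all stages together were tested, and 2 within-library ratios were tested by exact permutation. The members and lists were chosen with earlier results of these data known. For each member the 3 most similar genes are named, and of each list the called genes with the 2 largest changes from E17 to P60, plus any needed to state a count of 5 or fewer. A further Schwann cell marker is not reported here. Replicates were separate animals or pools, and no 2 of the 42 pairs of libraries within a stage held identical values. On simulated counts of 17700 genes for P1 against E17, the fit called 97 of 100 genes changed by 1.5 log2 units, 99 of 100 changed by 3, and 5 unchanged genes. The simulation gave all genes the same dispersion (0.044) and, apart from the genes changed at P1, the same mean shares at every stage. It held no GC or dissection differences, which the real libraries have, so it gives no error rates for these data. Alternatives were DESeq2 1.42.0 and its size factors, limma-voom (limma 3.58.1), library size only, other filters, the 2 compared stages only, no E13 libraries, a replicate block, a GC correction, no fold minimum, other pseudocounts and lengths, each library left out, and, added after seeing the data, the 3 libraries with the steepest GC slopes left out. The interval for the summed Cdkn2a reads covers counting error only, without the spread between libraries, and treats reads as independent although they carried no molecular identifiers.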

Additional observations from a re-analysis of the deposited data

Results flagged for a closer look

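Each of the 10 genes at each of 7 stages was checked for a library far from the other 3 (Dixon's test), and 2 of 70 groups were marked, where chance marks about 1 group in 20. Cdkn1a in P60 replicate 1 was at 476 CPM, below the other 3 libraries at 541 to 546 CPM. Cdkn2b in P60 replicate 3 was at 4.10 CPM, below the other 3 at 6.09 to 6.24 CPM, and leaving it out moved the difference of Cdkn2b from E17 to P60 from 0.98 to 1.10, past the 2-fold minimum, as did leaving out E17 replicate 1 (1.03) or E17 replicate 3 (1.05). The call of Cdkn1a did not depend on its low library.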

How the results depend on the processing

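Of the single-gene results under the alternatives, 739 kept direction and side of the threshold, 19 turned direction, 17 newly passed and 2 no longer passed. The change from E17 to P60 in the 2 ratios was -5.22 to -4.92 for Rbl1 to Rbl2 and -5.60 to -5.33 for Cdkn1c to Cdkn1b. Without a fold minimum the members called were 8 (E17 against E13), 8 (P1 against E17), 4 (P5 against P1), 5 (P14 against P5), 1 (P24 against P14) and 3 (P60 against P24). Of all 17700 genes tested, 11014, 5225, 3114, 5233, 964 and 2845 were called in the same order. With the 2 compared stages only, 3 members were called at E17 against E13, where Cdkn2a had too few counts to be tested. Leaving out 1 library gave 0 to 1 members for P24 against P14 and 0 to 1 for P60 against P24. The changes that turned direction were all uncalled. With library size only they were Cdkn1a at E17 against E13 (-0.21), Rbl2 (-0.076) at P1 against E17, Cdkn1b (-0.11), Rb1 (-0.15) and Rbl2 (-0.070) at P5 against P1, Cdkn1b (-0.0014) at P14 against P5 and Cdkn2a (0.038) at P60 against P24. Without the 3 libraries of steepest GC slope they were Cdkn1a (-0.10) at E17 and Rbl2 (-0.0050) at P1. With 1 library left out they were Cdkn1a at E17 (-0.11 to -0.012), Rbl2 at P1 (-0.0049), Rb1 at P5 (-0.031), Cdkn2d at P14 (0.0027) and Cdkn2a at P60 against P24 (0.047 to 0.16). The cause was not tested. Cdkn1c at E17 against E13, -0.99, passed 2-fold with DESeq2 (-1.03) and without any of E13 replicates 1 to 3 or E17 replicate 1 (-1.12 to -1.003), and Cdkn1b there (0.82) did so with limma-voom (1.03). In that comparison 5 members, against 4 in the main fit, were also called with a filter of at least 1 CPM in at least 4 libraries. The same count of 5 was reached without the 3 libraries of steepest GC slope. The deviations of same-numbered replicates from their stage means had r of -0.06 to 0.29, over 0.1 in 10 of 28 pairs. The numbers were not used to pair samples in the main fit. With the replicate as a block, 4 members were called at P1 against E17 and 7 at P60 against E17, as without it, and no count of members moved. Counts were fewest for Cdkn2a (0 to 39 reads per library), Cdkn2b (1 to 163) and Rbl1 at P60 (60 to 87).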
